A study of Mus musculus with 8 samples.

Results

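Muscle actins and contractile genes are described here in cultures of mouse embryonic fibroblasts (MEFs), which are mesenchymal cells grown from embryo tissue. The genes were Acta2, Actg2, Acta1, Actc1, Tagln, Cnn1, Myl9, Myh11 and Des, chosen by name for the myofibroblast or muscle character of the cultures. All probe sets annotated to only 1 of these genes were taken, which gave 12 probe sets of 9 genes among 22626 probe sets and 12393 genes. A probe set is the group of short oligonucleotides on an Affymetrix array that reads 1 transcript. The 8 arrays held RNA of whole cultures of 4 genotypes, which were Tbk1-/- Ikbke-/-, Tbk1-/-, Ikbke-/- and wild type (WT), all of strain C57BL/6 x 129Ola. Tbk1 and Ikbke encode related kinases that switch on interferon genes when foreign nucleic acid is sensed. Each genotype had 1 array of cells transfected for 4 h with B-DNA, the synthetic polymer poly(dA-dT)-poly(dT-dA), and 1 array of mock transfected cells. No group had a replicate, and nothing says that the arrays came from separate cultures or embryos. The p-values therefore measure only the spread between these arrays, which may be technical. They also count as spread any B-DNA response that a fit does not describe, such as one that differs between genotypes in the fit of levels.

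The actin genes encode the filament protein in its muscle forms. Acta2 and Actg2 are the smooth muscle forms and Acta1 and Actc1 the skeletal and cardiac forms, and each differs little in protein from the non-muscle actins that every cell makes. Tagln and Cnn1 bind actin filaments, Myl9 is a regulatory light chain and Myh11 the heavy chain of smooth muscle myosin, and Des is the intermediate filament protein of muscle. Fibroblasts grown on plastic often take on a myofibroblast state, with Acta2 in stress fibres, in which transforming growth factor beta and the transcription factor Srf with its cofactors are known to drive these genes. Srf binds the CArG box, a short element with an A and T core.

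The CArG boxes of the promoters are shown because they are the sequence element best known to be shared by such genes. RefSeq windows of GRCm38.p6 that reach from 250 bases before the transcript start to just past it were at hand for 6 of the 9 genes, Acta1, Acta2, Actc1, Cnn1, Des and Myl9. A CArG box lay in 3 of these 6 windows and in 1.63% of all 32851 windows. A CArG-like element, in which 1 base of the 6-base core is G or C, lay in 4 of the 6 and in 8.5% of all windows. Both elements read as the same class on either strand, so 1 search covers both. The 250 bases before the start are given 5′ to 3′ on the strand of the gene for the 4 genes with either element, with CArG boxes and CArG-like elements in capitals. In Acta1 the CArG box is CCAAATATGG, 73 bases before the start, in Actc1 CCAAATAAGG, 47 bases before it, and in Myl9 CCTAATAAGG, 161 bases before it. Acta2 had the CArG-like elements CCCTATATGG and CCTTGTTTGG, 84 and 34 bases before the start. Distances are from the start used for the window. The annotated Acta2 and Myl9 genes begin further upstream, at bases 34255585 and 156775408, so their stretches lie partly inside the gene. The other capitals are CArG-like. In the Cnn1 and Des windows these letters were not found. A match is a description of the sequence and no evidence of binding.
Acta2 promoter (chr19:34255374-34255623, minus strand): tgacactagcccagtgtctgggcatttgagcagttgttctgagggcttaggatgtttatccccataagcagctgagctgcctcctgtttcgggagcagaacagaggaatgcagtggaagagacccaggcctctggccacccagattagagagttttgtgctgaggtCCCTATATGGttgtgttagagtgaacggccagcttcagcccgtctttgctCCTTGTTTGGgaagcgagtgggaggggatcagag
Acta1 promoter (chr8:123894776-123895025, minus strand): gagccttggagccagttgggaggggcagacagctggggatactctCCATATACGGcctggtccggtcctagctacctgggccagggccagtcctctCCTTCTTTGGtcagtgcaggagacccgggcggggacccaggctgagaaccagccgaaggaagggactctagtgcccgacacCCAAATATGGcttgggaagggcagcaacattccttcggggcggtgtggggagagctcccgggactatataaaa
Actc1 promoter (chr2:114052876-114053125, minus strand): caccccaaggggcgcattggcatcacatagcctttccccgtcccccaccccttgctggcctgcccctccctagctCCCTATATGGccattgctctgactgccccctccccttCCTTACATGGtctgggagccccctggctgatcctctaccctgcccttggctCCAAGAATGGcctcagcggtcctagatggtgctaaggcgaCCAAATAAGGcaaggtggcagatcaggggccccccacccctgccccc
Myl9 promoter (chr2:156775214-156775463, plus strand): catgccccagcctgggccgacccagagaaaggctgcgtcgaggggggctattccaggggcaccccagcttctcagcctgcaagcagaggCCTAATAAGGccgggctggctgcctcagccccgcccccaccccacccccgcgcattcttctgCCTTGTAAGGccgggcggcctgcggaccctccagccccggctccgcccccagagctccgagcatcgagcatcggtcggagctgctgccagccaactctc

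By level, the 9 genes fell into abundant ones that were on every array and others near the lower limit of measurement. Each array was scaled to a common trimmed mean of 500, and signals under 122, the 40th percentile of all scaled values, were treated as a floor without measured order. Of the 12 probe sets, 10 exceeded the floor on at least 1 array and were tested. A probe set of Des and one of Myh11 did not, with 35.4 to 109 and 8.43 to 17.3 on the 8 arrays. The tests were moderated tests in limma on log2 signal, in 1 fit of genotype and treatment over all 8 arrays. The p-values were adjusted by Benjamini-Hochberg over 16406 probe sets, with a threshold of 0.05, and the words rose, fell and called are used by that threshold.

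**Figure D1:**
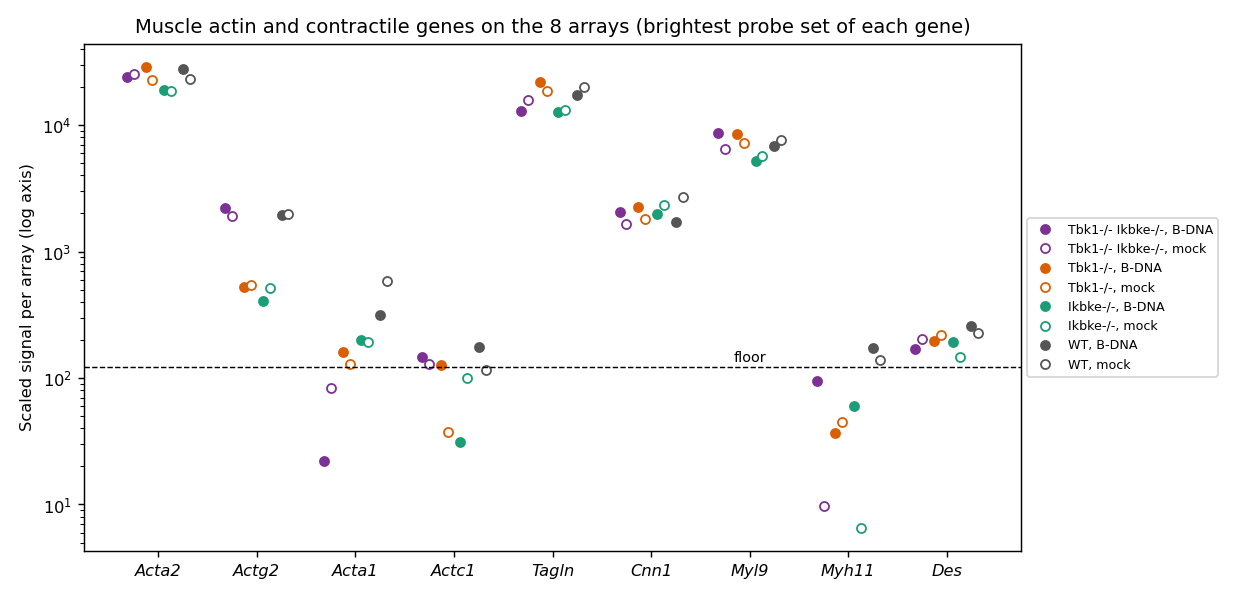
Scaled signal on a log axis for the brightest probe set of each of the 9 genes on each of the 8 arrays (filled points B-DNA, open points mock, colours genotypes, dashed line the floor of 122). Acta2, Tagln, Myl9 and Cnn1 lie high on all 8 arrays, Actg2 forms a high and a low group, and Acta1, Actc1, Myh11 and Des lie near or under the floor on most arrays.

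Among the tested members, Actg2, the enteric smooth muscle actin, differed most between the genotypes once dim signals were set to the floor. It was high in Tbk1-/- Ikbke-/- and WT cultures and low in both cultures that lacked 1 kinase. Its signal was 2214 in B-DNA and 1924 in mock Tbk1-/- Ikbke-/- cells, 524 and 539 in Tbk1-/- cells, 409 and 515 in Ikbke-/- cells, and 1939.8 and 1981 in WT cells, each with the B-DNA array first. The 4 arrays of the high genotypes and the 4 of the low ones, groups formed from these values, did not overlap, and all 8 were above the floor. The share of all probe sets that split so is not given, here or for the splits of other genes below. The largest gap between the arrays of one genotype was 0.33 on the log2 scale, against 2.17 between the highest and lowest genotype means.

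In order, the mean level of Actg2 over both arrays (geometric mean) was 2064 in Tbk1-/- Ikbke-/-, 1960.4 in WT, 531 in Tbk1-/- and 459 in Ikbke-/- cells. Relative to WT, Actg2 fell in Tbk1-/- cells to 0.271 of the WT level (95% confidence interval 0.205 to 0.359, log2 difference -1.88, SE 0.16, limma adjusted p = 0.0121). It fell in Ikbke-/- cells to 0.234 of the WT level (log2 difference -2.10, adjusted p = 0.0103, limma). The Tbk1-/- Ikbke-/- cells had 1.05 times the WT level (interval 0.795 to 1.39, adjusted p = 0.81, limma), and Tbk1-/- cells 1.16 times the Ikbke-/- level (interval 0.874 to 1.53, adjusted p = 0.55, limma, in a contrast that called 4.17% of all probe sets), so these neighbours in the order did not differ beyond their spread.

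Contrasts between the mutants were added after the values were seen. Actg2 was higher in Tbk1-/- Ikbke-/- cells than in Tbk1-/- cells, by 3.88-fold (interval 2.93 to 5.14, limma adjusted p = 0.00395), where 20% of all probe sets were called. It was 4.50-fold higher than in Ikbke-/- cells (adjusted p = 0.0041, limma), where 18.3% were called. The interaction of both deletions, the difference between the effects of Tbk1 loss without and with Ikbke, was 4.05 on the log2 scale (SE 0.22, adjusted p = 0.00441, limma), where 13.9% of all probe sets were called.

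**Figure D2:**
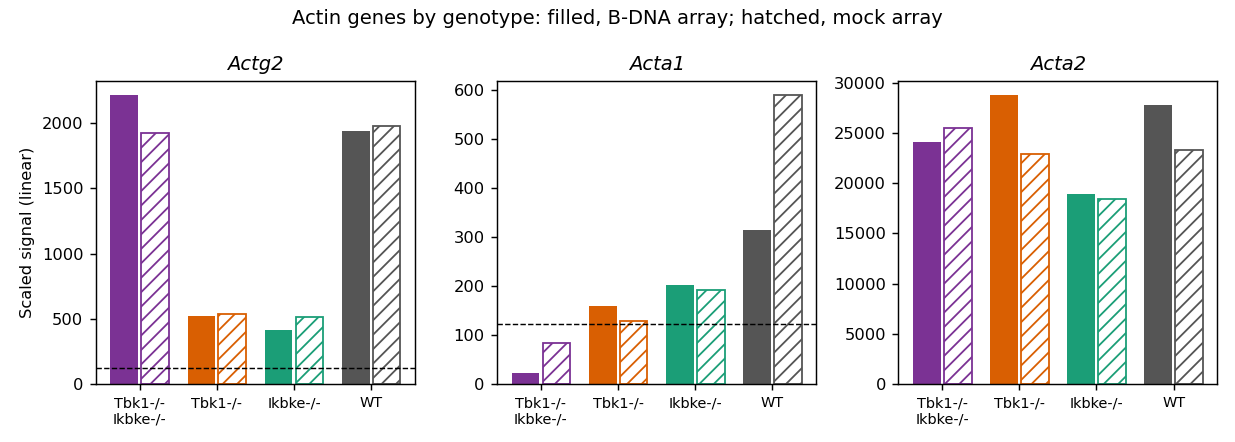
Scaled signal on linear axes that start at 0 for Actg2, Acta1 and the brighter Acta2 probe set, with filled bars for the B-DNA array and hatched bars for the mock array of each genotype (dashed line the floor of 122, not drawn for Acta2). Actg2 is 1924 to 2214 in Tbk1-/- Ikbke-/- and WT cells and 409 to 539 in the single mutants, Acta1 is highest in WT, and Acta2 is lowest in Ikbke-/- cells.

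The calls of Actg2 against WT were lost when any 1 array was left out, as were most calls over all probe sets in these comparisons. In those fits the log2 difference from WT stayed between -1.90 and -1.87 in Tbk1-/- and between -2.28 and -1.91 in Ikbke-/- cells. The log2 difference of Tbk1-/- Ikbke-/- cells was 1.79 to 2.13 from Tbk1-/- cells and 1.98 to 2.36 from Ikbke-/- cells in those fits. The interaction was 3.86 to 4.24. Most of those fits did not call Actg2 by the interaction or by the F test, and some did not call it in the contrasts between the mutants. Fits without further scaling or without the filter on low values gave -1.66 and -1.88 in Tbk1-/- and -2.01 and -2.10 in Ikbke-/- cells and no call. Without further scaling the log2 differences of Tbk1-/- Ikbke-/- from Tbk1-/- and Ikbke-/- cells were 1.27 and 1.62, beside 1.96 and 2.17 with it, and the interaction was 3.28 (limma adjusted p = 0.0295, 0.026 and 0.0184). Xist, the RNA of the inactive X chromosome, was 138 to 209 on the arrays of the genotypes that lack Ikbke and 2950.1 to 3766 on those that have it, and its part in the levels of Actg2 was not tested.

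Acta1, the skeletal muscle actin, was brightest in WT cultures and lowest where both kinases were missing. Its signal was 22.0 in B-DNA and 82.6 in mock Tbk1-/- Ikbke-/- cells, 159 and 128 in Tbk1-/- cells, 201 and 191 in Ikbke-/- cells, and 314 and 589 in WT cells. The WT arrays were above all 6 mutant arrays, though the share of all probe sets that split so is not given. Both Tbk1-/- Ikbke-/- arrays were under the floor. WT cells therefore had at least 3.52-fold more signal than Tbk1-/- Ikbke-/- cells, with the dim arrays set to the floor (limma adjusted p = 0.0276). The differences from WT of -1.59 in Tbk1-/- and -1.13 in Ikbke-/- cells did not pass the test (limma, adjusted p = 0.078 and 0.15). Without the WT mock array the difference of Tbk1-/- Ikbke-/- cells was -1.30. No fit that left out 1 array, the scaling or the filter called it, and each of these also called fewer of all probe sets.

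Macrophage and leukocyte markers were also highest in WT. The summed signal of 15 such markers was 1439 and 1313 in Tbk1-/- Ikbke-/-, 1682 and 1484 in Tbk1-/-, 1358 and 1281 in Ikbke-/-, and 5485 and 20942 in WT cells, B-DNA array first. Of the 15, 1 to 2 reached 244 on each mutant array, against 10 and 13 on the WT arrays, where 244 is 2 times the floor, and none was at 0. The part of these markers in the Acta1 result was not tested. In such bulk RNA, fewer cells of a type and less RNA per cell cannot be told apart.

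Across the 4 genotypes, the F test for any difference called 2 of the 10 tested member probe sets, Actg2 (adjusted p = 0.00482) and Acta1 (adjusted p = 0.0438, both limma). It called 19.2% of all 16406, so the members' share was close to the background. Against WT, 1 member was called in each mutant. This was Actg2 in Tbk1-/- cells, where 3.09% of all probe sets were called, and in Ikbke-/- cells, where 2.58% were, and Acta1 in Tbk1-/- Ikbke-/- cells, where 12.6% were. All 3 calls were lower than WT, as were 1.85%, 1.41% and 4.94% of all probe sets in these 3 comparisons. The median log2 difference of the 10 members was -0.16 in Tbk1-/-, -0.42 in Ikbke-/- and -0.21 in Tbk1-/- Ikbke-/- cells, beside -0.01, -0.03 and 0.03 over all probe sets.

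**Figure D3:**
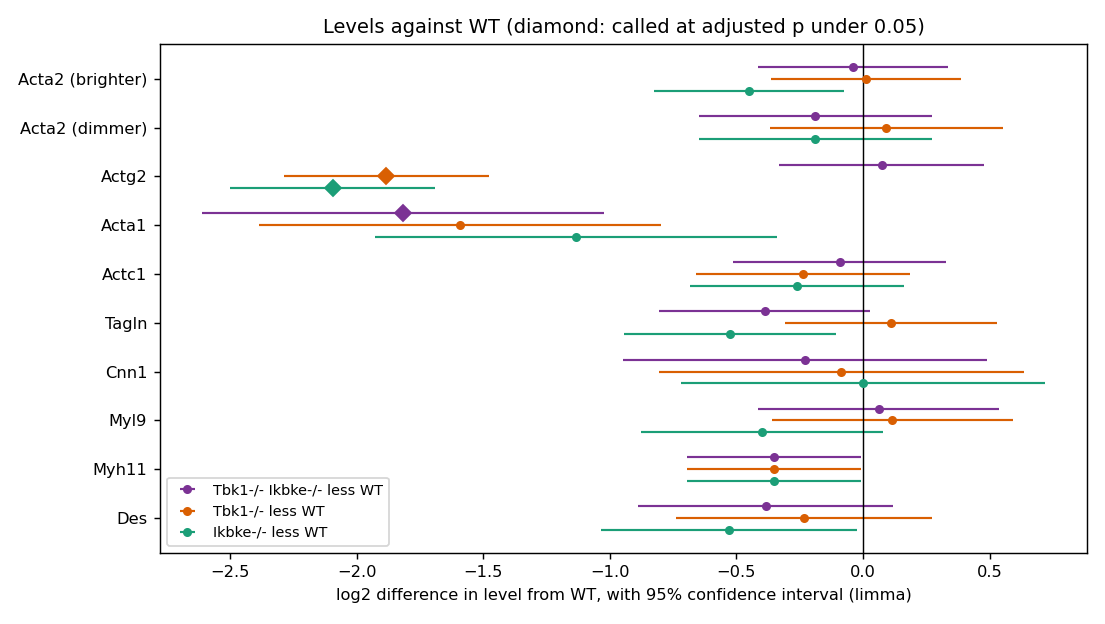
Log2 difference in level from WT, with 95% confidence intervals from limma, for the 10 tested probe sets in Tbk1-/- Ikbke-/-, Tbk1-/- and Ikbke-/- cells (diamonds pass the threshold). Actg2 in both single mutants and Acta1 in Tbk1-/- Ikbke-/- cells are the only diamonds, and the Acta2, Tagln, Cnn1 and Myl9 intervals are close to or overlap 0.

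Acta2, the smooth muscle actin by which myofibroblasts are recognised, was strongly expressed on every array. Its brighter probe set read 24155 in B-DNA and 25477 in mock Tbk1-/- Ikbke-/- cells, 28771 and 22892 in Tbk1-/- cells, 18914 and 18437 in Ikbke-/- cells, and 27867 and 23304 in WT cells. Both Ikbke-/- arrays were under the other 6, and the share of all probe sets that split so is not given. The Ikbke-/- level was 0.733 of WT (interval 0.565 to 0.95), which did not pass the test (limma adjusted p = 0.20), and the F test gave an adjusted p of 0.162. Acta2 was 0.973 of WT in Tbk1-/- Ikbke-/- and 1.01 of WT in Tbk1-/- cells. The second Acta2 probe set lay at 46.1 to 180.1, around the floor, and gave no call. The brighter one reached 58.5% to 94.3% of the highest deposited signal of its array, and whether signals so near the top are compressed was not tested. Its suffix, s, marks probes shared by several transcripts, and how far the probes of the actin genes also read other actins was not tested.

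Tagln, the actin binding protein transgelin, was abundant in every culture and read 12851 and 15838 in Tbk1-/- Ikbke-/- cells, 21769 and 18652 in Tbk1-/- cells, 12689.5 and 13251 in Ikbke-/- cells, and 17321 and 20129.6 in WT cells. All arrays of the genotypes that lack Ikbke were below all arrays of those that have it. This split was read off the values, and the share of all probe sets that split so is not given. The fitted level was 0.764 of WT in Tbk1-/- Ikbke-/-, 1.08 in Tbk1-/- and 0.694 in Ikbke-/- cells, and none passed the test (limma adjusted p = 0.20, 0.78 and 0.19). The F test gave an adjusted p of 0.0984, and it called Tagln under quantile normalisation (0.0457) and with a trended, robust error model (0.0371). As Xist split the same arrays in the same way, the Ikbke genotype and the Xist level cannot be told apart here.

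Myl9, the regulatory light chain through which myosin is switched on, read 8637 and 6481 in Tbk1-/- Ikbke-/-, 8428 and 7154 in Tbk1-/-, 5186 and 5700.0 in Ikbke-/-, and 6777 and 7575 in WT cells. The Ikbke-/- arrays were again the lowest, at 0.759 of WT (limma adjusted p = 0.36). Cnn1, calponin, read 2046 and 1644 in Tbk1-/- Ikbke-/-, 2254 and 1822 in Tbk1-/-, 1979 and 2337 in Ikbke-/-, and 1701 and 2717 in WT cells, and the genotypes overlapped (F test adjusted p = 0.88, limma). For Cnn1 the WT arrays were further apart than the means of any pair of genotypes.

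The remaining members stayed near the floor. Actc1, the cardiac actin, read 145 and 129 in Tbk1-/- Ikbke-/-, 126 and 37.3 in Tbk1-/-, 31.2 and 101 in Ikbke-/-, and 175 and 117 in WT cells. Myh11, the defining heavy chain of smooth muscle, read 95.1 and 9.66 in Tbk1-/- Ikbke-/-, 36.6 and 44.7 in Tbk1-/-, 60.4 and 6.53 in Ikbke-/-, and 173 and 140.03 in WT cells, so only the WT arrays exceeded the floor. Des read 169 and 203 in Tbk1-/- Ikbke-/-, 195 and 217 in Tbk1-/-, 192 and 146 in Ikbke-/-, and 260.0 and 226 in WT cells. None of these 3 passed any test (limma F test, adjusted p 0.22 to 0.56). Myh11 was tested through its WT signal alone, so no mutant could come out higher than WT. The cultures had Acta2, Tagln, Cnn1 and Myl9 at high signal, while Myh11 and Des, found in mature smooth muscle, were at or near the floor.

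No member passed a test for the B-DNA transfection. None reached 2-fold between the B-DNA and mock array in any genotype, at a higher signal of 244 or more. Among all probe sets 0.652% were 2-fold higher and 0.853% lower in Tbk1-/- Ikbke-/- cells, 0.311% and 0.482% in Tbk1-/-, 3.22% and 1.45% in Ikbke-/-, and 3.04% and 1.82% in WT cells. The largest ratios were in WT, at 0.533 for Acta1 and 0.626 for Cnn1, both lower with B-DNA. In WT the summed macrophage markers were also lower with B-DNA, as given above, and 11 of the 15 were past 2-fold lower. Their part in these ratios was not tested. In the other 3 genotypes the Cnn1 ratio was 1.24 in Tbk1-/- Ikbke-/-, 1.24 in Tbk1-/- and 0.847 in Ikbke-/- cells.

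The average response over the genotypes called 0 of the 10 members, with adjusted p from 0.678 to 0.941, and 0% of all 16406 probe sets (limma). At an unadjusted p under 0.05 it held 0 members and 1305 probe sets. In this fit a B-DNA response that differed between genotypes counted as spread. The members' fitted ratios of B-DNA over mock lay between 0.914 for Acta1 and 1.16 for the dimmer Acta2 probe set. The dependence of the response on Tbk1 called 0 of the 10 members and 1.65% of all probe sets (limma). At an unadjusted p under 0.05 it held 2563 of all 16406 probe sets and 1 of the 10 members, Cnn1. The Cnn1 response was more positive without Tbk1 by 0.77 on the log2 scale (SE 0.25, adjusted p = 0.217, limma).

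The genes whose log2 signal followed that of Acta2 most closely over the 8 arrays were named by Pearson's r among 2122 probe sets with 1 gene symbol, above the floor throughout and with a log2 SD of 0.5 or more. They were Capn1, a calcium dependent protease (r = 0.92), Denn2b (0.90), Cavin2, a coat protein of caveolae (0.88), Pdlim1, an actin associated adaptor (0.86), Ddr1, a collagen receptor (0.86), and Fbln2, a matrix glycoprotein (0.86). All 6 were lowest on both Ikbke-/- arrays, as was Acta2, by whose values they were chosen, so this is no separate result. Fbln2, for one, was at 1859.9 and 2368 in Ikbke-/- cells, against 9514 and 10031 in WT cells. By the same measure, chosen after the values were seen, Actg2 was followed by Ephx1 (0.97), Galnt2 (0.97), Pdgfc, a growth factor (0.97), Aph1a (0.96), Cd248, a surface protein of stromal cells (0.96), and a probe set of Cald1, the actin binding caldesmon (0.95). The brighter Cald1 probe set did not pass the F test (limma adjusted p = 0.0598). These arrays share genotypes in pairs, so the correlations are a description of 8 points.

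The wider smooth muscle and myofibroblast list had 28 measured genes, none of them members, of which 26 were tested. The F test called 13 of them, where 20% of all 9626 genes were called with 1 probe set a gene. Against WT, 2 rose and 7 fell in Tbk1-/- Ikbke-/- cells, 1 rose and 5 fell in Tbk1-/- cells, and none rose and 3 fell in Ikbke-/- cells. Over all genes 13.2%, 3.01% and 2.79% were called in these 3 comparisons. The list's median log2 difference was -0.29, -0.08 and -0.40, beside 0.04, -0.01 and -0.05 over all genes. Leaving out 1 array removed some or all of the Tbk1-/- Ikbke-/- calls, as it did over all probe sets. Such fits cannot decide whether the list's calls hold. Without further scaling the F test called 10, and 1 rose and 7 fell in Tbk1-/- Ikbke-/-, 1 rose and 2 fell in Tbk1-/- and 1 fell in Ikbke-/- cells.

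Within it, Vcl and Csrp1 were lowest where both kinases were missing, and Itga8 was lowest in Ikbke-/- cells. Vcl, the focal adhesion protein vinculin, read 4017 and 3705 in Tbk1-/- Ikbke-/- cells, 10989.7 and 10733 in Tbk1-/-, 11062 and 10377 in Ikbke-/-, and 9195 and 8324 in WT cells. The Tbk1-/- Ikbke-/- arrays were below all others, a log2 difference of -1.18 from WT (SE 0.11, limma adjusted p = 0.00761). Csrp1, a smooth muscle LIM protein, read 1601 and 1249 in Tbk1-/- Ikbke-/-, 3339 and 3039 in Tbk1-/-, 4480 and 4225 in Ikbke-/-, and 6589 and 6180.4 in WT cells, and fell to 0.222 of WT in Tbk1-/- Ikbke-/- and to 0.499 of WT in Tbk1-/- cells. Itga8, the integrin alpha8 subunit, was at 538 and 475 in Tbk1-/- Ikbke-/-, 508 and 532 in Tbk1-/-, 249 and 223 in Ikbke-/-, and 1169.99 and 957 in WT cells, and fell in all 3 mutants. Without further scaling the calls of Csrp1 and Itga8 in Tbk1-/- cells were lost (limma adjusted p = 0.223 and 0.158). Crip1, a LIM domain protein, fell in all 3 as well, with log2 differences from WT of -0.97 in Tbk1-/- Ikbke-/-, -3.02 in Tbk1-/- and -1.65 in Ikbke-/- cells, of which the call in Tbk1-/- cells alone was made without further scaling. Hspb1, a chaperone of actin filaments, fell by 1.07 in Tbk1-/- Ikbke-/- cells and rose by 1.33 in Tbk1-/- cells. Aoc3, an amine oxidase of smooth muscle, was at 625 and 549 in Tbk1-/- Ikbke-/- cells and under the floor on the WT arrays, at least 4.79-fold higher. Smtn, smoothelin, was past 2-fold lower after B-DNA in Ikbke-/- cells (581, against 1314 mock) and in WT cells (456, against 1101 mock).

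**Figure D4:**
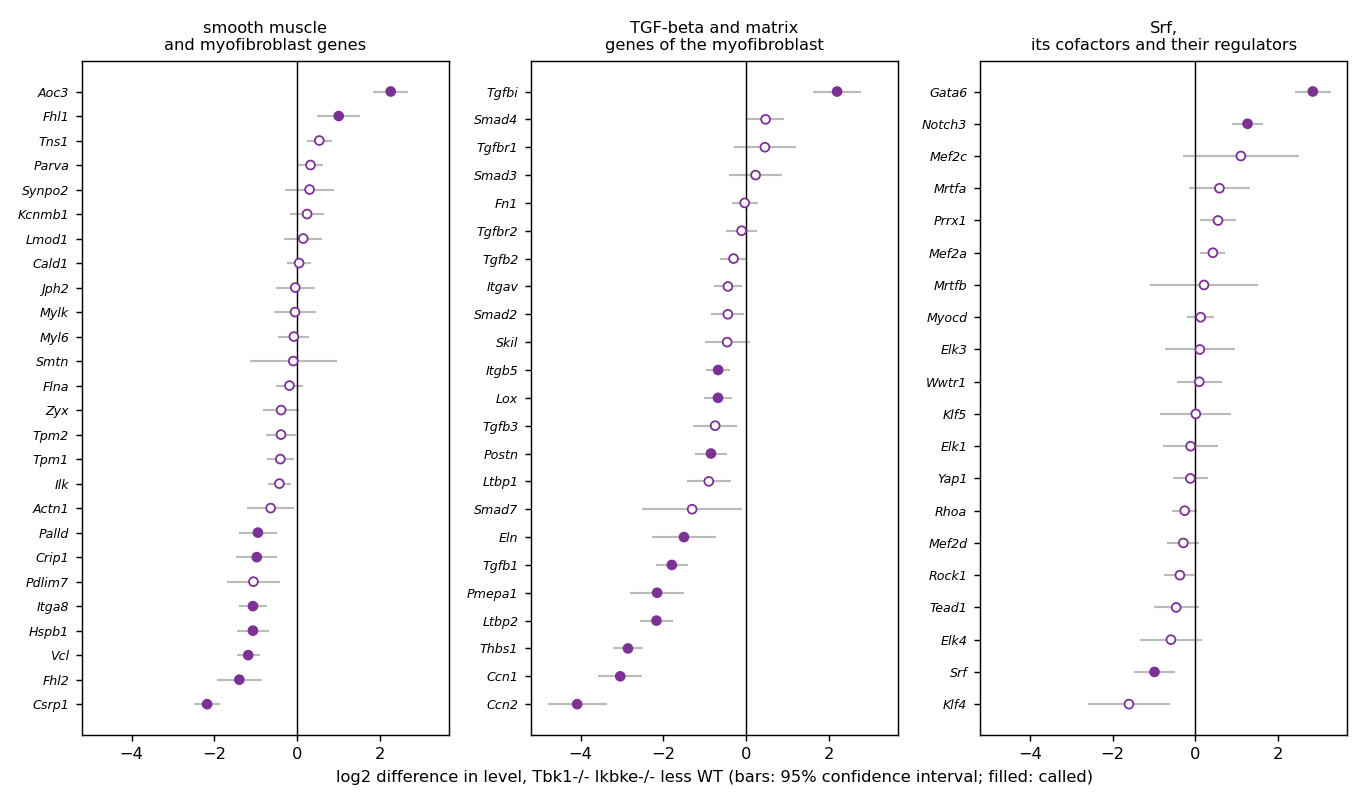
Log2 difference in level of Tbk1-/- Ikbke-/- cells from WT for each tested gene of 3 lists, with 95% confidence intervals from limma (filled points pass the threshold). In the smooth muscle list 2 filled points are above 0 and 7 below, in the transforming growth factor beta and matrix list 1 is above and 10 below, with Ccn2, Ccn1 and Thbs1 lowest, and in the Srf list 2 are above and 1 below.

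The list of transforming growth factor beta and matrix genes had 23 genes, all tested. The F test called 13, where 20% of all genes were called. In Tbk1-/- Ikbke-/- cells 1 rose and 10 fell, against 8.17% and 5.08% of all genes. In Tbk1-/- cells none rose and 2 fell, where 3.01% of all genes were called. In Ikbke-/- cells 1 rose and 3 fell, where 2.79% were called, and these Ikbke-/- calls were lost without further scaling. The list's median log2 difference was -0.68 in Tbk1-/- Ikbke-/-, 0.17 in Tbk1-/- and -0.41 in Ikbke-/- cells. Over all genes it was 0.04, -0.01 and -0.05. Ccn2, a matricellular protein and a known target of the pathway, read 608 and 998 in Tbk1-/- Ikbke-/- cells, 13610.2 and 14468 in Tbk1-/-, 14537 and 11689 in Ikbke-/-, and 14522 and 12047 in WT cells. The Tbk1-/- Ikbke-/- arrays stood far below the other 6, at 0.0589 of WT (log2 difference -4.09, SE 0.28, limma adjusted p = 0.00512).

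Ccn1, of the same family, and Thbs1, thrombospondin, which can activate latent growth factor, showed the same pattern, at 0.121 and 0.138 of WT. Their log2 differences from Tbk1-/- cells were -3.55 and -3.33, and from Ikbke-/- cells -2.71 and -2.40 (limma adjusted p 0.00181 to 0.00434), in the contrasts added after the values were seen. Ltbp2, Tgfb1 (the ligand) and Itgb5 (an integrin subunit) fell against WT, with log2 differences of -2.17, -1.80 and -0.68. Tgfbi, a matrix protein induced by the ligand, was the exception that rose, by 2.19, with an adjusted p of 0.0527 without further scaling (limma). The Tbk1-/- Ikbke-/- calls of this list were also partly or wholly lost when 1 array was left out, as over all probe sets. Smad7, an inhibitor of the pathway, was past 2-fold higher after B-DNA in Tbk1-/- Ikbke-/- cells (702 against 285), and Tgfbr1, a receptor, past 2-fold lower in Ikbke-/- (285 against 574) and WT cells (358 against 808).

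Among 20 genes of Srf, its cofactors and regulators, all tested, the F test called 6, where 20% of all genes were called. In Tbk1-/- Ikbke-/- cells 2 rose and 1 fell, a share near the 13.2% of all genes called. In Tbk1-/- cells 1 rose and 2 fell, and in Ikbke-/- cells 1 rose and none fell, where 3.01% and 2.79% of all genes were called. This list's Tbk1-/- Ikbke-/- calls were again partly or wholly lost without 1 array, as over all probe sets. Srf itself read 386 and 345 in Tbk1-/- Ikbke-/- cells, 1058 and 1048 in Tbk1-/-, 670.02 and 715 in Ikbke-/-, and 602 and 872 in WT cells. It fell by 0.99 on the log2 scale in Tbk1-/- Ikbke-/- cells against WT (SE 0.19, limma adjusted p = 0.0369), with both arrays below the other 6, and the adjusted p was 0.0583 without further scaling. Its cofactor genes Myocd, Mrtfa and Mrtfb gave no call, and Myocd exceeded the floor on 1 array. By ratio of B-DNA over mock, Mrtfb was past 2-fold higher in Tbk1-/- Ikbke-/- cells, and Mrtfa and Klf5 were past 2-fold lower and Mef2c higher in Ikbke-/- cells. Gata6, a transcription factor of smooth muscle, rose in Tbk1-/- Ikbke-/- (log2 difference 2.84) and Tbk1-/- cells (1.51). Notch3, a receptor of smooth muscle and pericytes, rose in Tbk1-/- Ikbke-/- cells (1.26). In Tbk1-/- cells its difference of -0.94 was called (limma adjusted p = 0.0467) but not without further scaling, with quantile normalisation or with a common median (0.135, 0.0539 and 0.0582). Prrx1, a mesenchymal homeobox factor, was under the floor on both Tbk1-/- arrays and at least 22.7-fold higher in WT. Mef2a rose in Ikbke-/- cells by 0.88, a call lost without further scaling, and Klf4 passed the F test but no comparison with WT.

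Markers of skeletal and cardiac muscle were scarce. Of 40 measured, 3 (Nkx2-5, Casq1 and Ckm) reached 244 on any array and 12 were tested. The muscle regulators Myod1 and Myog stayed at or under 100.1 on all arrays. The F test called 1, Casq1, a calcium store protein, which read 132 and 135 in Ikbke-/- cells, against 251 and 219.7 in WT cells, a log2 difference of -0.81 (limma adjusted p = 0.0475). Neither call was made without further scaling, with quantile normalisation or with a common median (0.0643 to 0.0864 by the F test and 0.0684 to 0.214 against WT). Ckm and Nkx2-5 were past 2-fold lower after B-DNA in Tbk1-/- Ikbke-/- cells. The summed signal of the 40 was 2217 and 2656 in Tbk1-/- Ikbke-/-, 2011 and 2069 in Tbk1-/-, 1923 and 1864 in Ikbke-/-, and 2884 and 2516 in WT cells, B-DNA array first.

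The share of all genes called was 20% by the F test, 13.2% in Tbk1-/- Ikbke-/-, 3.01% in Tbk1-/- and 2.79% in Ikbke-/- cells against WT, which is the background of the counts that follow. The non-muscle actin and myosin genes, 13 tested, had 4 calls by the F test, Myl12b, Tpm4, Tmsb4x and Actn4, but 2 with quantile normalisation, and Tmsb4x was called under none of the 3 other scalings. In Tbk1-/- Ikbke-/- cells 1 rose and 2 fell, in Tbk1-/- cells 1 rose and in Ikbke-/- cells none was called. Actb, the main non-muscle actin, was at 17954 to 26193 on the 8 arrays. Of 7 pericyte markers 5 were tested, and 3 (Cspg4, Mcam and Pdgfrb) were called by the F test. In Tbk1-/- Ikbke-/- cells Cspg4 and Mcam fell, and Anpep read 251 and 267, against 24.6 and 22.8 in WT cells, both under the floor. The Anpep difference was called (limma adjusted p = 0.045) but under none of the 3 other scalings (0.0731 to 0.144).

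Of 10 fibroblast markers, Col1a1, Col1a2 and Vim were at 20852 or more on all 8 arrays. The F test called 5 (Dcn, Lum, S100a4, Thy1 and Col3a1), of which Col3a1 was called under none of the 3 other scalings. In Tbk1-/- Ikbke-/- cells Dcn and Lum rose and S100a4 and Thy1 fell, in Tbk1-/- cells 1 fell, and in Ikbke-/- cells 2 rose and 1 fell. With B-DNA, Pdgfra, a growth factor receptor, was past 2-fold lower in Ikbke-/- (914 against 2147) and WT cells (290.4 against 885), and Twist1, a mesenchymal transcription factor, past 2-fold higher in WT cells (667 against 300.3). Of the 9 epithelial markers 6 were tested and 1 was called, Krt19, higher in Tbk1-/- cells. Krt19 was under the floor on all other arrays, so it could only be called higher there. Of the 8 endothelial markers 5 were tested and none was called, and Egfl7 was past 2-fold lower with B-DNA in Tbk1-/- Ikbke-/- cells (164 against 363). Of the 8 neural markers 6 were tested and Stmn2 was called and was lower in all 3 mutants, though not in Tbk1-/- cells without further scaling.

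Of 15 macrophage markers, 14 were tested and 5 (C1qc, Adgre1, Lyz2, C1qb and Ctss) were called by the F test. In Tbk1-/- Ikbke-/- cells 7 fell, and in Tbk1-/- and Ikbke-/- cells 2 each, C1qc and Adgre1. Of the 7, Lyz1, C1qb, C1qc, Tyrobp and Ctss were under the floor on all mutant arrays. They were tested through their WT signal alone, so against WT they could only be called lower. Without further scaling 3 fell in Tbk1-/- Ikbke-/- cells and none in the single mutants, and Adgre1 in Ikbke-/- cells was called under none of the 3 other scalings. The 11 past 2-fold lower with B-DNA in WT cells included Lyz1 (651 against 5903), Lyz2 (1205 against 4991), C1qa (303 against 1191) and Ms4a7 (197 against 877). Fits that left out 1 array called fewer of the macrophage markers in Tbk1-/- Ikbke-/- cells, as they did of all probe sets. The number called by the F test also changed with the array left out. Calls of non-muscle actin and myosin genes and of pericyte, fibroblast and neural markers were also lost in some or all such fits. These fits cannot decide whether the calls hold. No gene of any list was called for the average response to B-DNA (limma).

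Scale factors were 1.96 to 3.58, 37.0% to 42.7% of probe sets lay at or under the floor, and the ratio of 3′ to 5′ signal, a sign of RNA quality, was 0.778 to 0.916 for Gapdh. For Actb that ratio moved with genotype, at 1.05 and 1.18 in Tbk1-/- Ikbke-/-, 1.30 and 1.32 in Tbk1-/-, 1.06 and 0.998 in Ikbke-/-, and 0.944 and 0.953 in WT cells, B-DNA array first. Its part in the differences between genotypes was not tested. The targeted gene Tbk1 read 390 and 290.01 in Tbk1-/- Ikbke-/-, 305 and 226 in Tbk1-/-, 910.02 and 472 in Ikbke-/-, and 989 and 501 in WT cells, B-DNA array first. The arrays labelled as lacking Tbk1 were thus the lowest 4, and whether the probes lie in the deleted part is not given in the sources used here.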

How the data were processed

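The deposited data are signal intensities, linear and 1 per probe set, which the authors computed with MAS5, per the submitters' processing notes. No source used here gives a scaling target or detection calls. Of 22690 probe sets 64 were controls. Gene symbols came from the platform annotation, 20380 probe sets with 1 symbol, 691 with several and 1555 with none, and were updated for 20351 through RefSeq GRCm38.p6. That annotation matched the probe set names, although the study's design names a different array.

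Each array was scaled to a 2% trimmed mean of 500, set to a floor of 122 and taken to log2. Moderated tests (lmFit, then eBayes, in limma 3.58.1 under R 4.3.3) were 2-sided, with Benjamini-Hochberg adjustment over 16406 probe sets that exceeded the floor on at least 1 array. Levels and the average response came from a fit of genotype and treatment with 3 residual degrees of freedom. These hold any B-DNA response that differs between genotypes as well as the spread between arrays. The Tbk1 dependence of the response had 1, with genotype as a block. Ratios of B-DNA over mock within a genotype were 1 array against 1 and had no test. A list gene was represented by its brightest probe set. Precision is limited by having 8 arrays.

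The genes, lists, tests and alternatives were chosen with earlier results of these data known. Named were all member probe sets, and per list up to 6 genes called by the F test, by smallest p, and up to 4 past 2-fold in a pair, as well as the 6 probe sets most like Acta2, Tbk1 and Xist. Tgfbi, Myocd, Mrtfa, Actb and any other list gene named beyond these were chosen after their values were seen, as were the 4 macrophage genes named among 11 past 2-fold.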

Additional observations from a re-analysis of the deposited data

Results flagged for a closer look

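Actg2 differed in its response to the loss of Tbk1 with and without Ikbke. Against a background without Ikbke, loss of Tbk1 went with a signal of 2214 and 1924 in Tbk1-/- Ikbke-/- cells, against 409 and 515 in Ikbke-/- cells. With Ikbke present, it went with 524 and 539 in Tbk1-/- cells, against 1939.8 and 1981 in WT cells. The difference between these effects was 4.05 on the log2 scale (limma, adjusted p = 0.00441). In fits that left out 1 array it was 3.86 to 4.24, and most of these fits did not call it. Without further scaling it was 3.28 (adjusted p = 0.0184). The cause was not tested.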

How the results depend on the processing

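With 1 array per group, every level rests on 2 arrays per genotype, and a fit without 1 array leaves a genotype with a lone array that is assumed to vary like the others. B-DNA and mock arrays were paired by genotype, which is a term of the fits of the average response and the Tbk1 dependence. No member's called difference changed sign under any alternative.

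The F test called 3151 probe sets and 2 members, but 2051 without further scaling, 1165 without a filter and 1967 with 1 probe set per gene. It called 1 member without further scaling, with a common median, without a filter and with only probe sets above the floor on all arrays. For Tbk1-/- over WT, 507 probe sets became 207 without scaling, 175 without a filter and 277 per gene. For Ikbke-/- over WT, 423 became 133 without scaling, 210 with a floor at the 20th percentile and 139 without a filter. In both, the call of Actg2 was lost (0 members) without scaling and without a filter. For Tbk1-/- Ikbke-/- over WT, 2067 became 1227 without scaling, 1258 with the lower floor, 870 without a filter and 1317 per gene, and no member (0) was called without scaling, without a filter and above the floor on all arrays. The Tbk1 dependence, 270 probe sets, became 60 with the lower floor, 96 with log2(signal + 16), 0 without a filter and 443 with a trended, robust prior. With the lower floor, 2 members in Tbk1-/- Ikbke-/-, 2 in Tbk1-/-, 1 in Ikbke-/- and 1 in WT cells were past 2-fold between B-DNA and mock, and without scaling 2 in WT. Without 1 array in turn, the F test called 0 to 450 probe sets and 0 to 1 member, Tbk1-/- over WT 0 to 60, Ikbke-/- over WT 0 to 5 and Tbk1-/- Ikbke-/- over WT 0 to 719, with 0 members in all 3, and the average response 0.

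Of the called probe sets, 60.8% were higher in Tbk1-/- Ikbke-/- cells than in WT, but 50.8% with a common median and 14.3% without scaling. The share was 40.2% in Tbk1-/- cells (55.5% with a common median) and 45.4% in Ikbke-/- cells (63.6% with a common median and 66.9% without scaling). Without scaling the median of all probe sets moved to -0.29 in Tbk1-/- Ikbke-/- and 0.14 in Tbk1-/- cells, to -0.15 for the average response and to 0.31 for the Tbk1 dependence. Of 125 calls of list genes by the F test or against WT, 82 were also made under all 3 other scalings and 7 under none. The causes were not tested.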
